A study of Mus musculus with 38 samples.

Results

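Tissue around B16 tumours that carried a hairpin against TGF-beta was compared, 14 days after inoculation, with control tissue. The comparison used 12 of the 38 arrays of the series, taken by their titles: 5 arrays of the B16-shTGFb tumour microenvironment at day 14 (numbers 1 to 5) and 7 arrays of control tissue (numbers 1 to 7). Total RNA of whole tissue was hybridised to Illumina bead arrays, which report 1 fluorescence intensity per probe. B16 is a melanoma line of the C57BL/6 mouse, and all samples of both groups came from C57BL/6 mice aged 8 weeks. The tumour samples came from mice given the line B16-shTGFb, a name that by convention stands for a short hairpin RNA that lowers TGF-beta in the tumour cells, while host cells keep their own TGF-beta genes. The control samples are labelled control tissue, with no tumour line and no organ named. The labels name no B16 line with a control hairpin. An effect of the hairpin and one of tumour growth or of the line itself cannot be told apart. Whether each array stands for a different mouse is not said in the labels, so the spread behind each p-value is that between these samples and may be technical.

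TGF-beta is a secreted cytokine that binds a pair of receptor kinases, which then activate Smad transcription factors. In tumours it is known for driving matrix deposition and for restraining T cells and natural killer cells. Interferons act through Janus kinases and the STAT transcription factors, and their target genes cover antiviral enzymes, chemokines for T cells, and the machinery that cuts peptides and loads them onto MHC class I. Pigment genes such as Mlana mark melanoma cells, and they mark the normal melanocytes of hair follicles as well.

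No gene was called between shTGFb day 14 tumour tissue and control tissue. Of 9874 genes tested with limma, 0 had an adjusted p under 0.05, a share called of 0%, and the smallest adjusted p was 0.818. At an unadjusted limma p under 0.05 there were 355 genes, 3.6% of those tested, beside 493.7 that a test with no differences would give on average. Of them 168 (1.7%) were higher and 187 (1.89%) lower on the tumour arrays. The median difference of all genes was -0.05 on the log2 scale, and 43.6% of genes were higher. A difference of more than 1 log2 unit was measured for 209 genes, 55 higher and 154 lower. The median 95% interval of a gene, not adjusted for the number of genes, reached 0.558 to either side. For a gene of that precision a smaller difference has an interval that includes 0. Larger differences were not called either. The differences that follow are measurements, and none is a called change. Levels are given as log2 intensity, background-corrected and quantile-normalized.

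Single arrays of both groups stood apart from the rest of their group. Between 20455 and 22304 probes per array were detected. The median correlation across the probes that passed the detection filter was 0.955 among control arrays, 0.902 among tumour arrays and 0.924 between the groups. Tumour arrays 2 and 4 each resembled control arrays closely, with 0.983 between tumour array 2 and control array 3, and tumour arrays 3 and 5 were most like control array 6 (0.923 and 0.925). The standard deviation was larger among the tumour arrays for 74.1% of genes, with a median of 0.514 against 0.374. Principal component 1 held 53.5% of the variance, with the hair keratins Krt71, Krt27 and Krt33a at one end and the skeletal muscle genes Sln, Ttn and Myh1 at the other. The hair keratin end also held the pigment genes Oca2 and Gpr143, and the muscle end the epidermal keratins Krt1 and Krt77. The count of genes at an unadjusted p under 0.05 turned on single arrays. It was 847 without tumour array 4, 639 without tumour array 2, 813 without control array 6, 230 without control array 1 and 231 without control array 7, and 0 genes were called in each of these fits.

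**Figure D1:**
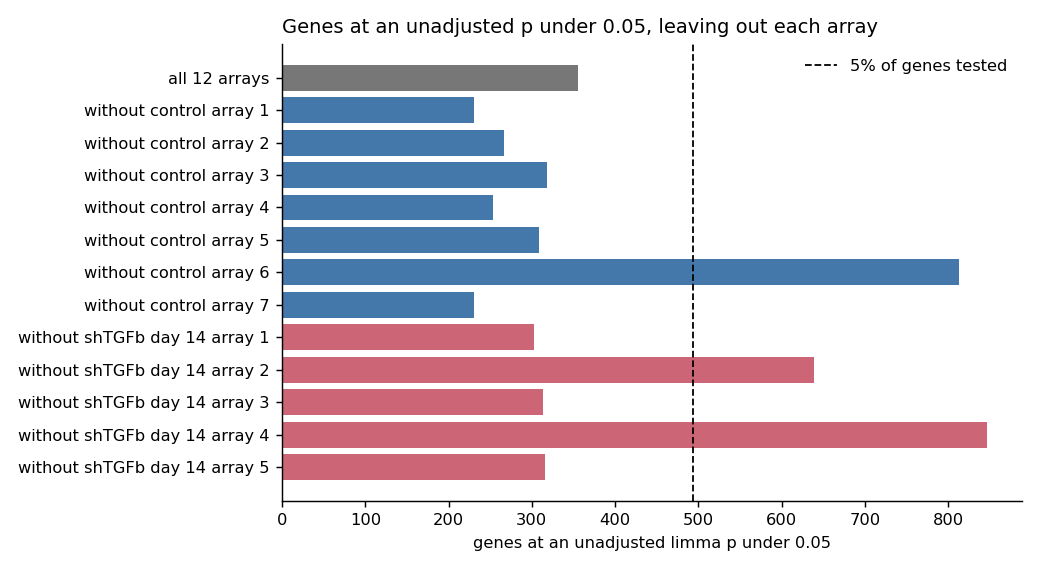
Number of genes at an unadjusted limma p under 0.05 (horizontal axis) in the comparison of shTGFb day 14 with control tissue, for all 12 arrays and after leaving out each array in turn. The dashed line marks 5% of the 9874 genes tested; the count is 355 with all arrays and lies above the line only without control array 6 (813), tumour array 2 (639) or tumour array 4 (847).

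Tgfb1 was not lower in the tumour tissue. The hairpin's name gives no isoform, so which TGF-beta gene it targets is not known from the labels. Tgfb1 was at 9.55, 9.09, 9.36, 8.69 and 10.18 on tumour arrays 1 to 5, and at 8.22 at the lowest, 9.002 at the median and 9.14 at the highest on the control arrays. Tumour arrays 1, 3 and 5 lay above every control array and the other 2 within the control range. The means were 9.38 ± 0.56 (SD, n = 5) and 8.85 ± 0.34 (SD, n = 7), a difference of 0.52 with an SE of 0.25 and a 95% interval from -0.02 to 1.07 (limma adjusted p = 0.818). The difference was 0.12 with array weights, and 0.38 with the Krt71 level of each array as a covariate, an alternative chosen after the data were seen. In whole tissue, fewer cells of a type and less RNA per cell cannot be told apart, and tumour and host transcripts of Tgfb1 are summed.

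Other genes of the TGF-beta pathway had small differences, mostly below 0. Of 18 measured ligand, receptor and Smad pathway genes, 5 were higher on the tumour arrays and 13 lower, with a median difference of -0.22 beside -0.05 over all genes. Skil, a repressor of Smads that TGF-beta itself induces, was the 1 gene of this list at an unadjusted limma p under 0.05 (1.89% of all genes were so in the lower direction). Its level was 8.90, 8.60, 8.49, 9.19 and 8.54 on the tumour arrays and 8.90, 9.26 and 9.46 at the lowest, median and highest of the control arrays. Tumour arrays 2, 3 and 5 lay below every control array, tumour array 1 was level with the lowest of them, and tumour array 4 lay within the control range. The difference was -0.48 (SE 0.17, 95% interval -0.84 to -0.12, limma adjusted p = 0.818). Tgfbr2, the receptor that binds the ligand first, was at 13.03, 13.09 and 13.01 on tumour arrays 1, 2 and 4 and at 11.61 and 11.45 on arrays 3 and 5, against 12.07 to 13.19 on the control arrays. Its difference was -0.37 (SE 0.33), 0.07 with array weights, and 0.06 on its other, weaker probe. Tgfbr3, a co-receptor that presents the ligand, had a difference of -0.95 (SE 0.57) and was likewise lowest on tumour arrays 3 (7.30) and 5 (7.88). The ligand genes Tgfb2 and Tgfb3 had differences of -0.39 (SE 0.31) and 0.09 (SE 0.29), and the signal transducers Smad2 and Smad3 of -0.23 (SE 0.21) and -0.04 (SE 0.19).

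Known target genes of TGF-beta had a median difference of -0.24, with 8 of 25 measured members higher. Col1a1, the main chain of fibrous collagen, was at 13.94, 13.89, 12.63, 13.91 and 12.05 on the tumour arrays, against 12.35, 13.71 and 14.20 at the lowest, median and highest of the control arrays, a difference of -0.26 (SE 0.39). Cdkn1a, an inhibitor of cyclin-dependent kinases, had the largest positive difference of the list, 0.46 (SE 0.22), and the matrix protein gene Tgfbi one of -0.49 (SE 0.41). The sign of this list's median rested on 1 array: without tumour array 5 it was 0.05. With array weights and with the Krt71 covariate the sign turned too. Among VEGF genes, Vegfa was at 9.67, 9.85, 10.64, 9.49 and 9.65 on the tumour arrays and between 9.01 and 10.69 on the control arrays, a difference of -0.16 (SE 0.30) that was 0.03 over the mean of its probes. Vegfc, a growth factor of lymphatic vessels, had a difference of -0.32 (SE 0.16). Over the 8 measured VEGF genes, 3 of them higher, the median was -0.06 and the mean 0.07.

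**Figure D2:**
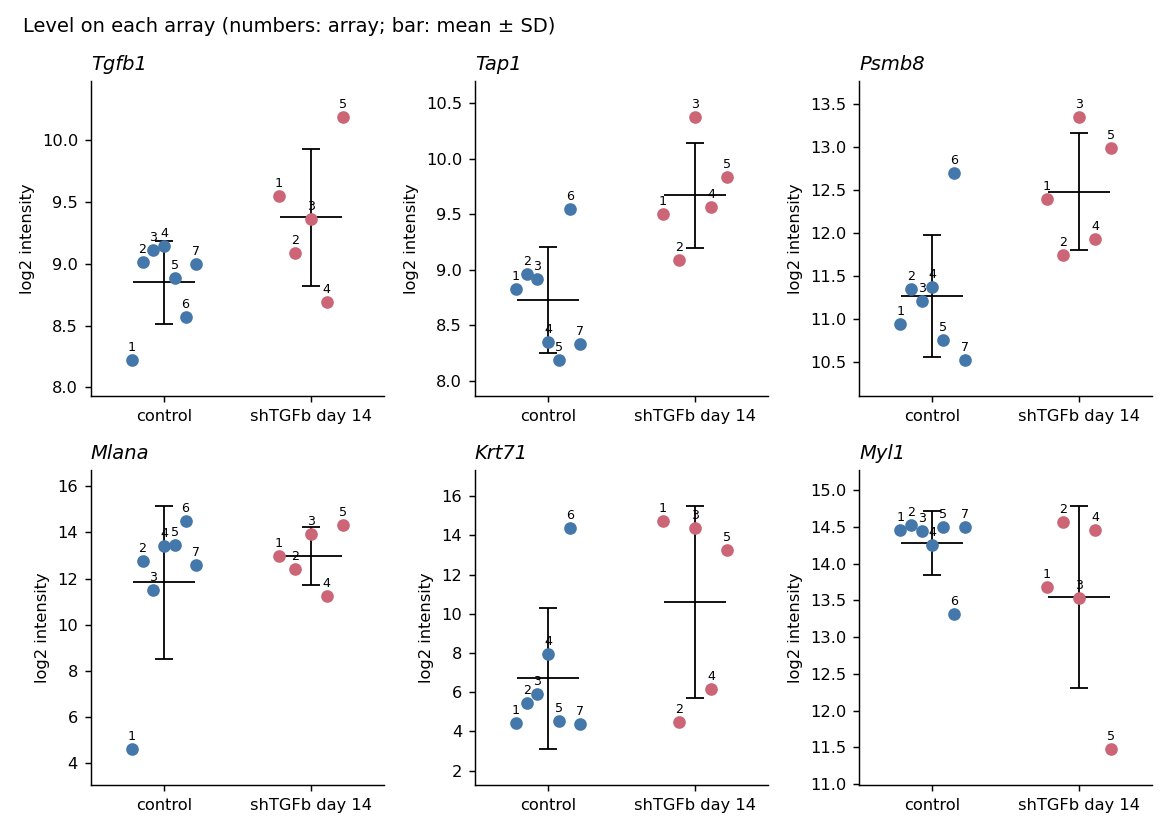
Log2 intensity (vertical axis of each panel) of 6 genes on the 7 control and 5 shTGFb day 14 arrays; points are arrays with their number, bars are mean ± SD. Tgfb1 is not lower in the tumour group, every tumour value of Tap1 and Psmb8 lies above all control arrays but number 6, Krt71 is above 13 on tumour arrays 1, 3 and 5 and control array 6, and Mlana is near background on control array 1 alone.

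Interferon response genes were the most uniformly higher group on the tumour arrays, although none of them was called. Of 36 measured members of the list of 47, 34 had a positive difference and 2 a negative one (Ddx58 -0.28, Irf9 -0.03), with a median of 0.48. By comparison 43.6% of all genes were higher. At an unadjusted limma p under 0.05 there were 8 members, all higher, where 1.7% of all genes were so. Fitted differences were largest for Isg15, a ubiquitin-like antiviral protein (1.32, SE 0.48), Cxcl10 (1.27, SE 0.72), Igtp, a GTPase of the immune response to intracellular pathogens (1.25, SE 0.65), Psmb8 (1.21, SE 0.37) and Cxcl9 (1.19, SE 0.67).

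Tap1, a subunit of the transporter that carries peptides into the endoplasmic reticulum, was at 9.50, 9.09, 10.37, 9.57 and 9.83 on the tumour arrays and at 8.19, 8.83 and 9.55 at the lowest, median and highest of the control arrays. Its tumour values were higher than those of 6 control arrays, and control array 6, at 9.55, lay among them. The means were 9.67 ± 0.47 (SD, n = 5) and 8.73 ± 0.48 (SD, n = 7), a difference of 0.94 with a 95% interval from 0.36 to 1.52 (limma adjusted p = 0.818). Psmb8, a catalytic subunit of the immunoproteasome, was at 12.39, 11.75, 13.34, 11.94 and 12.99 against 10.53, 11.21 and 12.70. Again all tumour arrays lay above 6 of the control arrays, and control array 6 overlapped them. The difference of 1.21 had a 95% interval from 0.40 to 2.02 (limma adjusted p = 0.818). Its partner subunits Psmb9 and Psmb10 had differences of 0.94 (SE 0.44) and 0.70 (SE 0.41), and Tap2 one of 0.55 (SE 0.31).

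Signal transducers and antiviral genes followed. Stat2, a transcription factor that carries the signal of type I interferon to the nucleus, was at 8.94, 9.01, 9.45, 8.90 and 8.56 on the tumour arrays and at 7.98, 8.38 and 8.73 at the lowest, median and highest of the control arrays. Only tumour array 5 lay within the control range. The difference was 0.61 (SE 0.18, 95% interval 0.22 to 0.99, limma adjusted p = 0.818). Ifi35 was at 9.50, 9.30, 10.66, 9.12 and 10.47 against a control range from 8.31 to 10.08, a difference of 0.98 (SE 0.35). Isg15 was at 8.63, 9.06, 11.40, 8.34 and 8.87 against 6.95 to 8.75, and tumour array 3 was far above the other arrays. Oas3, which makes the second messenger of an antiviral ribonuclease, had a difference of 0.71 (SE 0.27), Oas1b of the same family one of 0.64 (SE 0.28), and Dhx58, a sensor of viral RNA, one of 0.90 (SE 0.36). Irf1, a transcription factor that interferon gamma induces, had a difference of 0.49 (SE 0.26) and Irf7, one of type I interferon induction, 0.42 (SE 0.31). Ifi27, an interferon-induced membrane protein gene, was nearly level, at 13.32 ± 0.44 against 13.17 ± 0.44 (SD), a difference of 0.15 (SE 0.25) that was -0.08 with array weights.

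**Figure D3:**
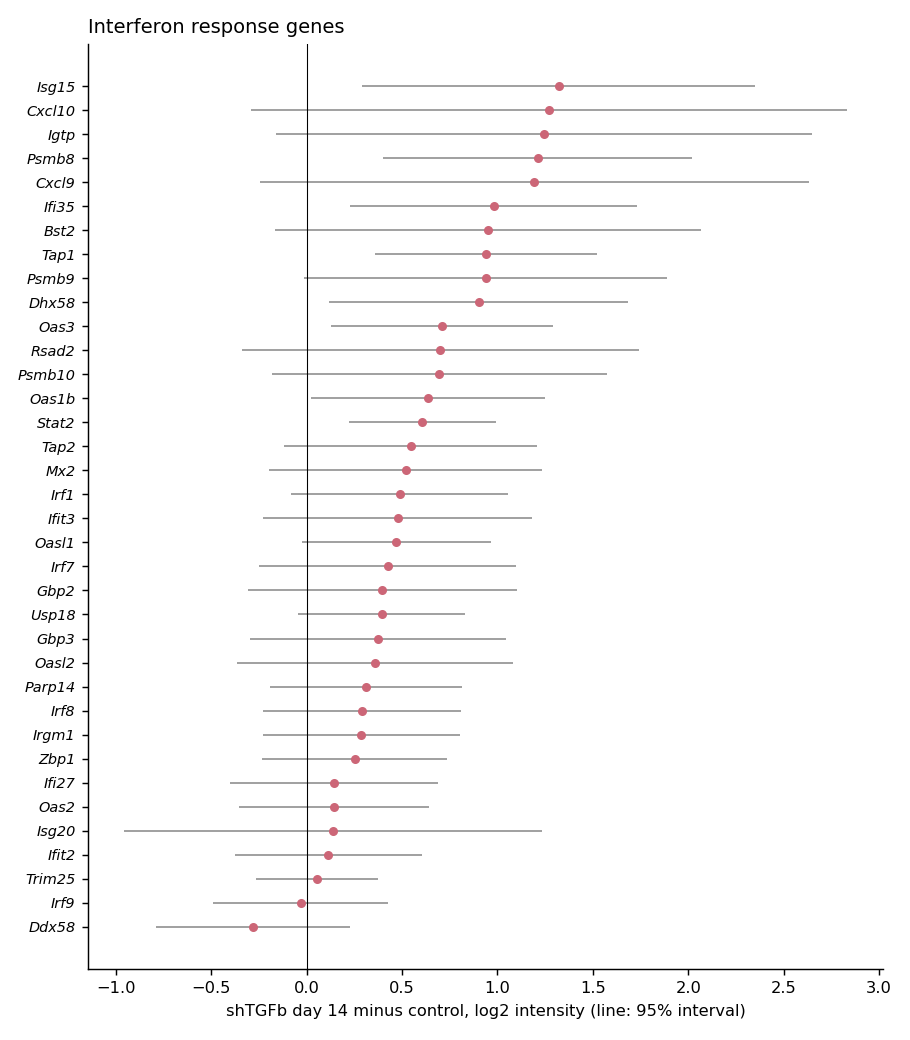
Difference between shTGFb day 14 and control tissue in log2 intensity (horizontal axis) for the 36 measured interferon response genes; points are fitted differences and lines their 95% intervals from limma. All but Irf9 and Ddx58 lie above 0, and the intervals of 8 genes do not reach 0.

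Promoters of interferon genes are shown because interferon signals act through short motifs near the start site. RefSeq windows of build GRCm38.p6, each 300 bases long and reaching from upstream of the start site to just past it, were searched on both strands for GAAANNGAAA, the core of the interferon-stimulated response element, and for TTCNNNGAA, the binding pattern of STAT dimers. Windows were at hand for 27 of the 36 measured interferon genes. The first motif was found in 12 of them (44.4%), where 3.99% of all 27025 genes with a window held it, and the second in 8 (29.6%), where 9.55% of all genes held it. The list was made of known interferon genes, so these shares describe the list and not the arrays. The windows could overlap only in part with the sequence that drives a gene, and Tap1's window held neither run of letters. Ddx58, which had a negative difference, held the first motif. Whether a match goes with a difference was not tested. Of the 8 genes at an unadjusted p under 0.05, 5 had a match, and their windows follow 5′ to 3′ on the gene's strand with matches in capitals. They lie at chr10:128270248-128270547 (Stat2, + strand), chr17:34197945-34198244 (Psmb8, + strand), chr11:101448162-101448461 (Ifi35, + strand), chr4:156200769-156201068 (Isg15, - strand) and chr5:120777610-120777909 (Oas3, - strand).
Stat2: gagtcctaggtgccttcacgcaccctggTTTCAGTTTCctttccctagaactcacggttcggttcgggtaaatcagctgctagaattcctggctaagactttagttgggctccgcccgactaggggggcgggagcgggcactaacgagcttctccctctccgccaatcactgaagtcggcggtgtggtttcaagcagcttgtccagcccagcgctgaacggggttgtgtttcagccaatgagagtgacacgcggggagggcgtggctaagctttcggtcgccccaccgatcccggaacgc
Psmb8: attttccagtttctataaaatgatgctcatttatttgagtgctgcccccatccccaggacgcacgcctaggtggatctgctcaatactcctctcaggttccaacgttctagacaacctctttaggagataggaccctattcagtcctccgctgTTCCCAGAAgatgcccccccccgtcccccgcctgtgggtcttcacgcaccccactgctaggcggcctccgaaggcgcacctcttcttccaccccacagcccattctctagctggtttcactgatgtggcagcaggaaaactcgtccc
Ifi35: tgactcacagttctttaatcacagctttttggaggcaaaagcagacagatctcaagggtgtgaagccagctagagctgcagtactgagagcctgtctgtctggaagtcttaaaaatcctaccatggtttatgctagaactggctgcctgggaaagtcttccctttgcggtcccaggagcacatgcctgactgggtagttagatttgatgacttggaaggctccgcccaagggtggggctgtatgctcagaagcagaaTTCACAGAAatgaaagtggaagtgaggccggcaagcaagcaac
Isg15: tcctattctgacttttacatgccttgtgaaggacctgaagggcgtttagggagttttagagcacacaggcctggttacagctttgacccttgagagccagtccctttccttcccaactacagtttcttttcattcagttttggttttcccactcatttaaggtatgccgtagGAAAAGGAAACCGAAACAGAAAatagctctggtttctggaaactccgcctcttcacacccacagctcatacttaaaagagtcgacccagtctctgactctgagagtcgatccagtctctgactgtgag
Oas3: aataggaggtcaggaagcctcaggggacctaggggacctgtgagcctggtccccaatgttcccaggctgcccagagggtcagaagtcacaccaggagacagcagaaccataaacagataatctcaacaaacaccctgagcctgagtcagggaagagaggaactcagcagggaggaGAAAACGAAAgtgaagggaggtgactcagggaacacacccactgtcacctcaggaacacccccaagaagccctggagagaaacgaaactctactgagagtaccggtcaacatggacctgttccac
The capitals mark the first motif in Stat2, Isg15 and Oas3, with 3 overlapping copies in Isg15, and the second motif in Psmb8 and Ifi35. A match is a run of letters and not a measured binding site.

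The interferon values moved with the hair keratins from array to array. Krt71, a keratin of the inner root sheath of growing hair follicles, was at 14.74, 4.48, 14.37, 6.14 and 13.26 on tumour arrays 1 to 5 and at 4.39, 4.55 and 4.45 on control arrays 7, 5 and 1. It was at 5.43, 5.90 and 7.92 on control arrays 2, 3 and 4, and at 14.35 on control array 6. The mean of the interferon list was 9.66, 10.47 and 9.60 on tumour arrays 1, 3 and 5 and 9.92 on control array 6, the 4 arrays with Krt71 above 13. It was 9.35 and 9.20 on tumour arrays 2 and 4, and between 8.57 and 9.15 on the other 6 control arrays. With Krt71 as a covariate, chosen after the data were seen, the median difference of the interferon list was 0.15 with 29 of 36 members higher. Without control array 6 the median was 0.64 with 33 of 36 higher, and without tumour array 3 it was 0.31 with 34 of 36 higher. The part of hair follicle content in the interferon values was not otherwise tested.

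Of the hair follicle list, 6 of 37 members were measured, and 4 were higher on the tumour arrays with a median of 2.76. These were the 4 keratins Krt71 (difference 3.89, 95% interval -0.73 to 8.50), Krt27 (3.50, -0.75 to 7.75), Krt33a (2.93, -1.25 to 7.11) and Krt28 (2.58, -0.38 to 5.54). Krt27, a partner of Krt71 in the root sheath, was at 14.27, 4.92, 14.02, 7.35 and 13.56 on the tumour arrays, and at 14.18 on control array 6 beside at most 9.14 on the other controls. Krt28 was at 12.71, 6.50, 12.40, 6.83 and 10.68, and at 12.60 on control array 6 beside at most 7.04 on the others. Each keratin thus separated the same 4 arrays from the remaining 8, across both groups. The transcription factors Gata3 and Sox21 of the same list ran the other way, with differences of -0.72 (SE 0.47) and -0.55 (SE 0.50). The list's median was -0.55 over the 3 members detected on all 12 arrays, and -0.02 with Krt71 as a covariate.

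**Figure D4:**
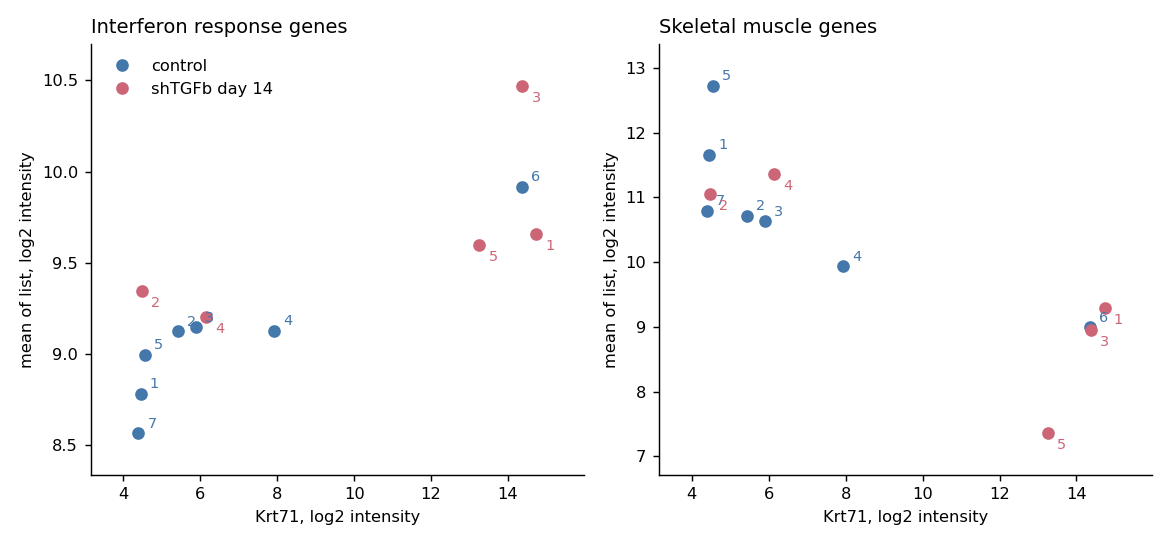
Mean log2 intensity of the 36 interferon response genes (left, vertical axis) and of the 41 skeletal muscle genes (right, vertical axis) against the log2 intensity of Krt71 (horizontal axis) on each of the 12 arrays, numbered within their group. Tumour arrays 1, 3 and 5 and control array 6 have Krt71 above 13, with the 4 highest interferon means and 4 low muscle means.

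Skeletal muscle genes had the lowest median of the lists, -1.23, and all 41 measured members of 46 had a negative difference. At an unadjusted limma p under 0.05 there were 0 of them, beside 1.89% of all genes in the lower direction. Myl1, a light chain of fast muscle myosin, was at 13.68, 14.57, 13.53, 14.45 and 11.48 on the tumour arrays and at 13.31, 14.45 and 14.53 at the lowest, median and highest of the control arrays. Tumour arrays 2 and 4 were at the level of most controls, and tumour array 5 was below all of them. The difference was -0.74 (SE 0.45, 95% interval -1.72 to 0.24). That was on its brightest probe, which lay close to the highest levels on these arrays. The other Myl1 probes had differences of -0.79 and -1.04. Myh8, the perinatal myosin heavy chain, was at 4.80, 6.95, 4.92, 6.74 and 4.76 against 5.83, 6.603 and 10.30, a difference of -1.51 (SE 0.71). Myh8 was detected on 2 of the 5 tumour arrays, and the other 3 values are not above background, while its other probe had a difference of -0.45. Ttn, the giant spring protein of the sarcomere, had a difference of -1.61 (SE 0.93). The list mean was 9.30, 11.06, 8.96, 11.36 and 7.36 on the tumour arrays and between 8.99 (control array 6) and 12.73 (control array 5) on the control arrays. The median was -0.63 without tumour array 5. Array weights brought it to -0.04 (15 of 41 members higher) and the Krt71 covariate to -0.11 (13 of 41 higher).

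Skin and fat genes followed the muscle genes. Of 38 measured keratinocyte genes 4 were higher, with a median of -0.49. Krt10, a keratin of the suprabasal epidermis, was at 14.40, 14.45, 14.58, 14.48 and 13.83 against 14.22, 14.44 and 14.49, a difference of -0.05 (SE 0.16). Its only probe lay close to the highest levels on these arrays. Itga6, an integrin of basal keratinocytes, had a difference of -0.77 (SE 0.40). The keratinocyte median was -0.05 without tumour array 5, -0.26 without control array 1, -0.25 without tumour array 3, and 0.04 with array weights. Sebaceous gland genes had a median of -0.81 with 1 of 10 higher, led by Dgat2l6 (-1.14, SE 0.74) and by Elovl4, an elongase of very long fatty acids (-0.93, SE 0.65). That median was -0.27 without tumour array 5, -1.23 without tumour array 4 and -0.09 with the Krt71 covariate. Adipocyte genes had a median of -0.52 with 1 of 20 higher. It was -0.21 without tumour array 5, -0.85 without control array 6 and -0.09 with the Krt71 covariate. Scd1, which desaturates fatty acids, was at 13.74, 13.61, 12.28, 13.99 and 11.62 against 12.27, 13.91 and 14.03, a difference of -0.65 (SE 0.44), and Fasn, the fatty acid synthase, had -0.57 (SE 0.28). Each of these genes had its lowest tumour value on tumour array 3 or 5. Fasn was not detected on 3 of the 5 tumour arrays.

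Pigment genes were high on nearly all arrays of both groups, control tissue included. Mlana, a melanosome protein gene, was at 12.99, 12.39, 13.94, 11.23 and 14.34 on the tumour arrays. On the control arrays it was at 4.63 on array 1, where it was not detected, and between 11.50 and 14.50 on the other 6. The groups overlapped, and the difference was 1.15 with a 95% interval from -1.83 to 4.13. Dct and Tyrp1, enzymes of melanin synthesis, had differences of 0.55 (SE 0.92) and 0.61 (SE 1.23), with 8.22 and 5.33 on control array 1 beside at least 13.72 and 11.43 on the other controls. Gpnmb, a glycoprotein of melanosomes and macrophages, had a difference of 0.38 (SE 0.65) and Sox10, a transcription factor of melanocytes and Schwann cells, 0.37 (SE 0.80). Ednrb, the melanocyte gene of smallest unadjusted limma p, went the other way, with a difference of -0.33 (SE 0.28). Of 19 measured melanocyte genes 14 were higher, with a median of 0.37. That median was -0.27 with 3 of 19 higher without control array 1, -0.12 without tumour array 5 and 0.18 without tumour array 3. The tissue named control is not otherwise described by the labels, and what its pigment genes come from was not tested. Cell cycle genes had a median of 0.09 with 24 of 33 higher, and -0.18 without tumour array 5. Cdk2, a kinase of DNA replication, was at 11.99, 12.08, 11.94, 10.91 and 13.29 against a control range from 10.88 to 13.16, a difference of -0.17 (SE 0.43).

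**Figure D5:**
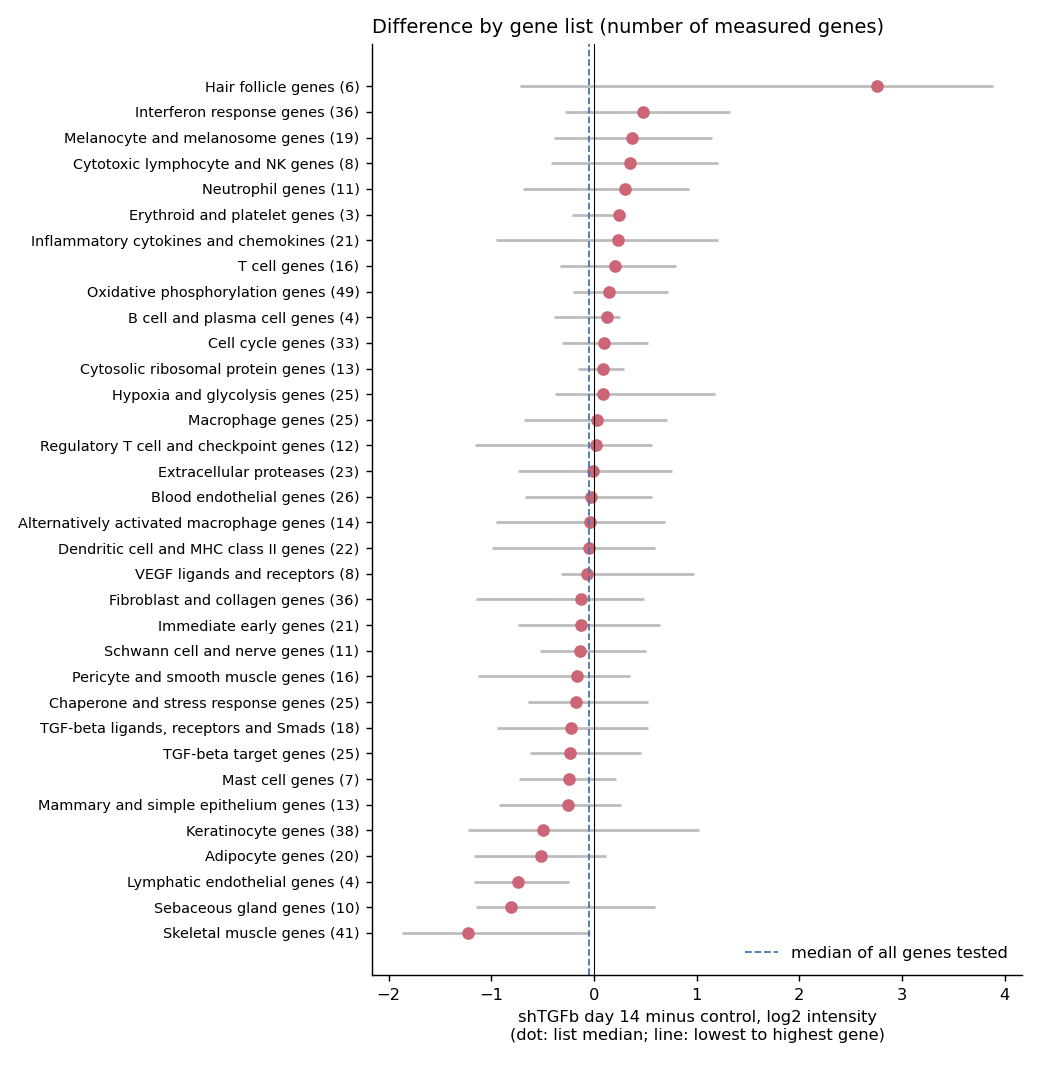
Differences between shTGFb day 14 and control tissue in log2 intensity (horizontal axis) for 34 gene lists, with the number of measured genes in brackets. Dots are list medians, grey lines run from the lowest to the highest gene, and the dashed line is the median of all genes (-0.05); hair follicle (2.76) and interferon (0.48) lists lie highest and skeletal muscle (-1.23) lowest.

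Lymphocyte genes had small positive medians. Of 16 measured T cell genes 12 were higher, with a median of 0.20. Ltb, a membrane cytokine of lymphocytes, was at 6.06, 5.91, 7.06, 5.40 and 5.97 on the tumour arrays against 4.83, 5.19 and 6.28 at the lowest, median and highest of the control arrays, a difference of 0.75 (SE 0.30) with overlapping groups. Thy1, which T cells share with fibroblasts, had a difference of 0.04 (SE 0.27). Of 8 measured cytotoxic and natural killer genes 6 were higher, with a median of 0.35 that was 0.07 at its lowest when single arrays were left out. Nkg7, a protein of cytotoxic granules, was at 9.06, 8.28, 10.27, 8.21 and 8.30 against 6.48, 7.31 and 9.65, a difference of 1.15 (SE 0.53). Its 2 highest values were on tumour array 3 and control array 6, which were also among the 4 arrays with the highest hair keratins. Prf1, which encodes the pore-forming perforin, had a difference of 0.45 (SE 0.27). Of 12 measured regulatory T cell and checkpoint genes 6 were higher, with median and mean on opposite sides of 0 (0.02 and -0.08). Cd274, which encodes the checkpoint ligand PD-L1, was at 10.29, 9.20, 10.22, 9.45 and 10.67 against 8.63, 9.31 and 10.22, a difference of 0.57 (SE 0.31). Of B cell and plasma cell genes 4 of 19 were measured, with a median of 0.13 and a difference of -0.38 (SE 0.31) for Blnk, an adaptor of the B cell receptor.

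Macrophage, alternatively activated macrophage and dendritic cell lists had medians near that of all genes. Macrophage genes had a median of 0.03 with 14 of 25 higher. C1qa, a chain of complement C1q made by tissue macrophages, was at 10.93, 10.30, 10.93, 10.50 and 9.91 against 8.87, 9.76 and 10.46, a difference of 0.71 (SE 0.28). Tumour arrays 1, 3 and 4 were above every control array. Lyz1, a lysozyme gene, had a difference of -0.18 (SE 0.20) on its brightest probe, which lay close to the highest levels on these arrays, and of -0.79 and -1.31 on its other probes. Of 14 measured genes of alternative macrophage activation 5 were higher (median -0.04), and Retnla, a secreted marker of that state, was at 8.13 on tumour array 5 beside 12.61 to 13.95 on the other tumour arrays. Stab1, the member of smallest unadjusted limma p, had a difference of 0.46 (SE 0.23), and of 0.19 and 0.11 on its other probes. Neutrophil genes had a median of 0.30 with 9 of 11 higher, led by the lectin receptor gene Clec4d (0.92, SE 0.47) with 8.33 and 7.65 on tumour arrays 3 and 5. Il1r2, a decoy receptor of interleukin 1, had -0.69 (SE 0.54). Dendritic cell and MHC class II genes had a median of -0.05 with 8 of 22 higher. H2-DMb1, which helps MHC class II to take up peptides, differed by 0.57 (SE 0.23), while Cd74, the invariant chain, had -0.03 (SE 0.21) on its brightest probe and 0.19 and 0.15 on its others. Mast cell genes had a median of -0.24 with 1 of 7 higher (0.07 without tumour array 5), including Cpa3 (-0.73, SE 0.55), a protease of mast cell granules. Inflammatory cytokine and chemokine genes had a median of 0.24 with 14 of 21 higher. Ccl7, a chemokine for monocytes, was at 10.62, 10.43, 11.08, 9.17 and 10.57 against 8.86, 9.71 and 10.10, and 4 of the 5 tumour arrays were above every control array. Its difference was 0.68 (SE 0.30). Erythroid and platelet genes were measured for 3 of 15 members, with a median of 0.24 and a difference of -0.22 (SE 0.49) for the platelet chemokine gene Pf4.

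Blood vessel, matrix and protease lists had medians near that of all genes, and the lymphatic list a lower one. Blood endothelial genes had a median of -0.03 with 11 of 26 higher, with -0.19 (SE 0.32) for Aqp1, a water channel. Lymphatic endothelial genes had a median of -0.74 with 0 of 4 higher. Mmrn1, a secreted glycoprotein of lymphatic endothelium, was at 6.65, 8.70, 4.88, 8.70 and 5.42 against 7.34, 8.10 and 8.80, so that tumour arrays 2 and 4 stood within the control range and the other 3 below it. Its difference was -1.17 (SE 0.62), and the list median was 0.17 with array weights. Pericyte and smooth muscle genes had a median of -0.17 with 4 of 16 higher, and Acta2, smooth muscle actin, had -0.24 (SE 0.26). Cspg4, the member of smallest unadjusted limma p, went the other way, with 0.36 (SE 0.21). Fibroblast and collagen genes had a median of -0.12 with 12 of 36 higher. It was 0.08 without tumour array 5, 0.16 with array weights and 0.19 with the Krt71 covariate. Dcn, the proteoglycan decorin, was at 13.86, 14.18, 13.38, 14.33 and 12.56 against 13.10, 14.28 and 14.37, a difference of -0.44 (SE 0.31). This probe too lay close to the highest levels, and the other Dcn probes had differences of -0.82 and -0.92. Of 23 measured extracellular proteases 11 were higher, and here too the median (-0.01) and the mean (0.04) differed in sign. Adam8, a protease of leukocytes, was at 7.72, 7.41, 8.10, 7.27 and 6.88 against 6.03, 6.76 and 7.26, with 4 tumour arrays above every control array and a difference of 0.75 (SE 0.28).

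Hypoxia and glycolysis genes had a median of 0.09 with 15 of 25 higher. The 1 member at an unadjusted limma p under 0.05 was Ddit4, which stress and low oxygen induce and which restrains the kinase mTOR, beside 1.7% of all genes in the higher direction. It was at 9.57, 9.77, 11.71, 9.65 and 9.77 on the tumour arrays and at 8.50, 9.20 and 9.36 at the lowest, median and highest of the control arrays, so the groups did not overlap. The difference was 1.02 with a 95% interval from 0.30 to 1.75 (limma adjusted p = 0.818), and tumour array 3 was far above the other 4. Mif, a cytokine that hypoxia can induce, had a difference of 0.05 (SE 0.20). Oxidative phosphorylation genes had a median of 0.14 with 37 of 49 higher, and -0.07 without tumour array 3. Chaperone and stress genes had a median of -0.17 with 8 of 25 higher. Hsp90b1, a chaperone of the endoplasmic reticulum, was at 12.30, 12.39, 12.09, 12.39 and 11.86 against 12.28, 12.79 and 13.08, a difference of -0.51 (SE 0.19). Cytosolic ribosomal protein genes had a median of 0.09 with 9 of 13 higher. Among 21 measured immediate early genes 7 were higher (median -0.13), and Ier3, an early gene of growth and stress signals, had 0.41 (SE 0.23). Of 11 measured Schwann cell and nerve genes 5 were higher, with a median of -0.13 and a mean of 0.005, and the myelin enzyme gene Cnp had 0.38 (SE 0.21). Mammary and simple epithelium genes had a median of -0.25 with 3 of 13 higher, and Krt7, a keratin of simple epithelia, had -0.65 (SE 0.45) and was detected on 3 of the 5 tumour arrays. Without tumour array 5 the sign of the median turned for alternative macrophage activation (0.34), dendritic cell (0.15), hypoxia (-0.03), immediate early (0.07) and Schwann cell (0.03) genes. Without tumour array 3 the medians were 0.09 for T cell, 0.12 for neutrophil and 0.14 for inflammatory genes, and without tumour array 5 that of lymphatic genes was -0.27.

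Among the 12 genes of smallest unadjusted p in the higher direction, Ubald2 was at 6.56, 5.93, 6.48, 6.15 and 7.07 on the tumour arrays against 5.45, 5.55 and 5.77 at the lowest, median and highest of the control arrays. All tumour values lay above all control values, with a difference of 0.84 (SE 0.19, limma adjusted p = 0.818). Tnk2, a cytoplasmic tyrosine kinase, was at 8.31, 8.25, 8.68, 8.31 and 8.52 against 6.84, 7.74 and 7.89, again with no overlap and a difference of 0.79 (SE 0.19). Plekhj1 (0.80, SE 0.20), the RNA polymerase III subunit gene Polr3c (0.59, SE 0.16), Spryd3 (0.56, SE 0.16) and Fkbp2, a prolyl isomerase of the endoplasmic reticulum (0.90, SE 0.26), did not overlap either. A weaker Fkbp2 probe had a difference of 0.35. Rprd2, a regulator of RNA polymerase II (0.69, SE 0.20), and Ddr1, a receptor kinase for collagen (0.64, SE 0.19), each had a single tumour array within the control range, as did Stat2. Tap1 and Psmb8 had more than 1 there. The remaining 1 of the 12 was a predicted gene. Each of the 12 had a limma adjusted p of 0.818.

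Of the 12 genes of smallest unadjusted p in the lower direction, Med1, a subunit of the Mediator complex that links transcription factors to RNA polymerase II, was at 6.57, 7.19, 6.09, 7.19 and 6.80 on the tumour arrays against 7.21, 7.46 and 7.72, with no overlap and a difference of -0.70 (SE 0.20, limma adjusted p = 0.818). That was its brightest probe, and its other probes had differences of 0.05 and -0.24. Vamp7, which fuses vesicles with membranes, was at 8.55, 8.59, 8.05, 8.65 and 8.06 against 8.75, 9.02 and 9.59, a difference of -0.64 (SE 0.19), also with no overlap. Ythdf3, a reader of methylated adenosine in RNA, had -0.70 (SE 0.19) with 1 tumour array, number 2 at 8.11, within the control range from 7.86 to 8.54. The others were Trappc8 of a vesicle tethering complex (-0.69, SE 0.21), Rmdn2 (-0.70, SE 0.22), the DNA damage gene Etaa1 (-0.71, SE 0.22), Tfb2m of mitochondrial transcription (-0.64, SE 0.20), Scaf11 of splicing (-0.48, SE 0.15), the histone demethylase gene Kdm4c (-0.65, SE 0.21), the adaptor gene Nck1 (-0.65, SE 0.21) and the RNA helicase gene Ddx50 (-0.63, SE 0.20). A weaker probe had a difference of -0.19 for Trappc8, -0.31 for Ddx50, -0.40 for Ythdf3 and -0.48 for Scaf11. The remaining 1 of the 12, a predicted gene, did not overlap between the groups.

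In all, 23 genes (0.233%) did not overlap between the groups, 13 of them higher (0.132%) and 10 lower (0.101%) on the tumour arrays. Those not yet named fall outside the naming rule and were picked with their values in view. The higher ones were Fgd1, an activator of the GTPase Cdc42 (0.72, SE 0.23), the metalloprotease gene Adam15 (0.50, SE 0.16), the interferon-induced membrane protein gene Ifitm1 (0.48, SE 0.20), the histone gene H2ac20 (0.51, SE 0.22), the autophagy gene Ambra1 (0.28, SE 0.13) and the kinase gene Mtor (0.21, SE 0.12). The lower ones were Wdr77 (-0.43, SE 0.14), Wdr78 (-0.43, SE 0.14), Fam172a (-0.56, SE 0.19), Pold3, a subunit of DNA polymerase delta (-0.42, SE 0.14), Ltn1, a ubiquitin ligase of stalled ribosomes (-0.39, SE 0.17), the GTPase gene Arf2 (-0.34, SE 0.15) and the sorting protein gene Snx27 (-0.21, SE 0.12). Ambra1, Mtor and Snx27 had 95% intervals that included 0.

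The shTGFb day 14 arrays were also compared directly with other tumour groups, which leaves out the control arrays. Against the same line at day 4 (6 arrays), limma called 0 of 9861 genes (0%), with 590 (5.98%) at an unadjusted p under 0.05 and a smallest adjusted p of 0.743. The day 14 difference of the interferon list from day 4 was near 0, with a median of 0.04 and 21 of 36 higher. At day 14, 0 of 16 T cell genes were higher than at day 4 (median -0.44), and 17 of 19 melanocyte genes were (median 0.80). The median of all genes was -0.04. At an unadjusted limma p under 0.05 there were 0 of these T cell genes and 1 of these melanocyte genes. Hypoxia and glycolysis genes had a median of 0.55 with 20 of 25 higher, and 6 at an unadjusted limma p under 0.05. Mammary and simple epithelium genes had a median of -1.15 with 0 of 13 higher, and 3 at such a p. Single arrays were left out for the gene counts of the direct comparisons and not for their list medians. Against shVEGF day 14 (6 arrays), a line whose hairpin is named for VEGF, limma called 0 of 9871 genes (0%), 98 (0.993%) reached an unadjusted p under 0.05, and the smallest adjusted p was 0.982. The interferon median was -0.04 with 16 of 36 higher, and the muscle median -0.90 with 1 of 41 higher, beside -0.05 over all genes. The Psmb8 level was 12.48 ± 0.68 (SD, n = 5) for shTGFb day 14, and for shVEGF day 14 it was 11.79 ± 1.53 (SD, n = 6), a difference with a 95% interval from -0.74 to 2.12.

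Against the wild-type line at day 14 (5 arrays) limma called 0 of 9804 genes (0%), with 316 (3.22%) at an unadjusted p under 0.05 and a smallest adjusted p of 0.656. The interferon list was higher with shTGFb for 33 of 36 members, with a median of 1.04 beside -0.06 over all genes. Muscle and keratinocyte lists were higher as well, with medians of 1.62 (38 of 39) and 2.56 (37 of 38). The wild-type arrays spread widely over genes of host tissue: the fibroblast gene Dcn ran from 4.67 to 14.16 over the 5 arrays, beside 12.56 to 14.33 over the 5 shTGFb arrays. Without wild-type arrays 2 and 5, 20 genes were at an unadjusted p under 0.05. Tgfb1 was at 8.87 ± 0.78 (SD, n = 5) in the wild-type group, and the difference of 0.51 had a 95% interval from -0.40 to 1.42. Set beside the same 7 control arrays, the interferon list had medians of 0.43 for shTGFb day 4, 0.52 for shVEGF day 4, 0.54 for shVEGF day 14, -0.04 for wild-type day 4 and -0.45 for wild-type day 14. Fibroblast medians were -1.50 for wild-type day 4 and -2.02 for wild-type day 14, beside -0.20 to 0.10 for the hairpin groups. Macrophage medians were -1.36 and -1.85, beside 0.03 to 0.25. The part of host tissue content in the interferon medians was not tested. These comparisons with control share the control arrays and are not independent of each other.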

How the data were processed

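Illumina bead arrays measured total RNA of whole tissue. The deposited signal table holds linear intensity values per probe without normalization, per the file headers, and a detection p-value beside each deposited value. BeadStudio and limma were used, per the submitters' processing notes, with versions and steps not given in the sources used here. The deposited log2 table covers 16247 of 45272 probes and equals the log2 of the quantile-normalized raw signals (largest difference 5e-14). Of its probes 14836 had 1 gene symbol in the platform annotation, 5 several and 1406 none, and 14830 were matched to RefSeq (GRCm38.p6) by Entrez identifier. All columns had a sample (0 without).

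Signals were background-corrected from the detection p-values (limma 3.58.1 nec, normexp, offset 16, R 4.3.3), quantile-normalized over 38 arrays and log2-transformed. Probes had to be detected (p under 0.05) on at least 5 of the 12 arrays, which 22145 probes passed and 24 named probes did not. The probe with the highest mean stood for each gene, leaving 9874 genes, of which 3483 had several probes. The groups were compared with lmFit and eBayes on the 12 arrays, and p-values were adjusted by Benjamini-Hochberg over all genes. The direct comparisons with other tumour groups were fitted in the same way on their own arrays. The steps were tested on simulated data, with noise independent between genes and a median spread smaller than that of either group here. That test does not show which differences these arrays could resolve. Precision is limited by how many arrays each group has.

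The arrays, the 34 gene lists and the restriction to 12 arrays were chosen with earlier results of these data known. By rule, named genes were Tgfb1 and Vegfa and the 12 genes of smallest p in each direction, since none was called. In each list they were also the member of smallest p and that of highest mean. Not all genes of this rule are described above. Other members were named for their role after their values were seen. Predicted genes were counted only. Alternatives changed the background correction, offset, scaling, filter, choice of probe, array weights, variance trend, arrays in the fit and replicate block, left out each array in turn, and, added after the data were seen, left out control arrays 1 and 6 or added Krt71 as a covariate. Array numbers come from the titles. Promoter windows were searched for 2 motifs as a description.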

Additional observations from a re-analysis of the deposited data

Results flagged for a closer look

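In a group of arrays, one value can lie far from all others. For each named gene and list mean, the gap from the highest or lowest array to its nearest neighbour was divided by the range of the group and held against Dixon's critical value. Of 252 groups 32 (12.7%) passed it, where chance passes about 1 in 20, and 16 of these were control array 6 and 6 control array 1. The groups share the same arrays and are not independent, so the share is a description and not a test. Each value below is the log2 level on the array that stands apart, beside that of its nearest neighbour, with the ratio of gap to range. Control array 6 was high for Psmb8 (12.70 beside 11.38, ratio 0.6081), Krt28 (12.60 beside 7.04, ratio 0.7703), Atp5b (14.44 beside 14.39, ratio 0.6548) and Rpl27 (14.45 beside 13.84, ratio 0.5782). Control array 6 was also high for the mean of the Interferon response list (9.92 beside 9.15, ratio 0.5706) and the mean of the Hair follicle list (12.48 beside 8.74, ratio 0.6408). Control array 6 was low for Tnk2 (6.84 beside 7.58, ratio 0.7021), Il1r2 (7.47 beside 8.95, ratio 0.5732), Ccl9 (11.43 beside 12.40, ratio 0.6965) and Dcn (13.10 beside 14.19, ratio 0.8535). Control array 6 was also low for Myl1 (13.31 beside 14.25, ratio 0.7708), Scd1 (12.27 beside 13.87, ratio 0.9085), Klf6 (11.24 beside 11.99, ratio 0.6375) and the mean of the TGF-beta ligands, receptors and Smads list (8.26 beside 8.60, ratio 0.5727). Control array 6 was also low for the mean of the Alternatively activated macrophage list (8.30 beside 9.48, ratio 0.6954) and the mean of the Adipocyte list (8.95 beside 10.61, ratio 0.7497). Control array 1 was high for Vamp7 (9.59 beside 9.04, ratio 0.6468) and Pdpn (12.42 beside 11.75, ratio 0.7162). Control array 1 was low for Gpnmb (10.06 beside 13.77, ratio 0.84), Mif (13.36 beside 14.18, ratio 0.7161), Sox10 (7.64 beside 10.86, ratio 0.6448) and the mean of the Schwann cell and nerve list (7.98 beside 8.23, ratio 0.5754). Control array 3 was low for Rmdn2 (5.56 beside 6.05, ratio 0.642). Control array 5 was high for Myh8 (10.30 beside 7.63, ratio 0.597). Control array 7 was low for Ccl7 (8.86 beside 9.69, ratio 0.6661). Tumour array 3 was high for Ddit4 (11.71 beside 9.77, ratio 0.906). Tumour array 3 was low for Pdpn (10.78 beside 11.55, ratio 0.7372). Tumour array 5 was low for Retnla (8.13 beside 12.61, ratio 0.7698), Cd74 (13.30 beside 14.18, ratio 0.8692), Aqp1 (10.15 beside 10.92, ratio 0.7449) and Krt10 (13.83 beside 14.40, ratio 0.7617). Tumour array 5 was also low for the mean of the Macrophage list (9.13 beside 9.99, ratio 0.7193).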

How the results depend on the processing

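No gene was called with an adjusted p under 0.05 in the comparison with control tissue under any alternative run, and the smallest adjusted p when single arrays were left out was 0.508. The count of genes at an unadjusted p under 0.05, 355 as reported, was 123 in a fit of all 38 arrays, 201 in that fit without 3 wild-type arrays, 697 with array weights and 210 with the Krt71 covariate, and it ran from 230 to 847 when 1 array was left out. Median scaling shifted the median of all genes by -0.0997, to -0.149, and 43 of its 511 genes were higher (8.41%) where 168 of 355 were so as reported. Deviations of same-numbered arrays had no common sign of correlation, with 0.17, 0.34, -0.23, -0.42 and 0.08 for numbers 1 to 5. Differently numbered arrays were not set beside them, so this cannot show whether the numbers pair the samples. With the number as a replicate block 494 genes were at an unadjusted p under 0.05, against 352 for shTGFb day 4, 393 for shVEGF day 14 and 844 for wild-type day 14, and 0 were called. Leaving out single arrays gave 378 to 861, 45 to 389 and 48 to 1283 genes in these 3 comparisons.

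Of 2477 alternative values for 92 named genes 95 changed sign, and 64 genes never did; 13 of 34 list medians kept their sign in all 27 alternatives. The cause was not tested. With the Krt71 covariate the differences were 0.192 for Col1a1, -0.401 for Vegfb, -0.0532 for Gpnmb, 0.00341 for Retnla, 0.117 for Il1r2, 0.179 for Mcpt4, -0.115 for Ifi27, 0.163 for Aqp1, 0.0261 for Acta2, -0.124 for Mif, 0.0251 for Krt10, 0.00182 for Sox21, 0.35 for Pf4, -0.39 for Sox10, -0.0202 for Atp5b and -0.199 for Mt1, and the medians 0.113 for blood endothelial and -0.0243 for hair follicle genes. With array weights they were 0.0684 for Tgfbr2, 0.22 for Col1a1, -0.329 for Vegfb, -0.109 for Gpnmb, 0.0796 for Blnk, 0.094 for Cd74, 0.332 for Mcpt4, -0.0831 for Ifi27, 0.114 for Mmrn1, -0.136 for Mif, 0.0297 for Krt10, 0.1998 for Sox21, 0.179 for Pf4, -0.448 for Sox10, -0.0325 for Ier3, -0.012 for Atp5b and -0.21 for Mt1, and -0.0668 for the chaperone median. The hair follicle median was -0.552 over genes detected on all 12 arrays. With the mean of all probes, differences were 0.0294 for Vegfa, 0.105 for Cd74, 0.00491 for Aqp1 and -0.11 for Klf6. With median scaling they were -0.0101 for Thy1, -0.114 for Sdc1, 0.0316 for Cd74, -0.0263 for Ccl9 and -0.0298 for Klf6, with medians of -0.145 for blood endothelial and -0.252 for chaperone genes. With the replicate block they were 0.0568 for Cdk2, -0.109 for Thy1, 0.0464 for Cd74, -0.219 for Ccl9 and -0.0902 for Klf6, with a blood endothelial median of -0.22. Without control arrays 1 and 6 they were -0.153 for Gpnmb, -0.192 for Ccl9, -0.0553 for Mif, -0.0655 for Sox10, -0.0947 for Klf6 and -0.0223 for Mt1. Leaving out single arrays gave ranges of -0.456 to 0.0488 for Col1a1, -0.118 to 0.471 for Vegfb, -0.211 to 0.531 for Gpnmb, -0.483 to 0.113 for Cdk2, -0.0747 to 0.237 for Thy1, -0.102 to 0.243 for Sdc1, -0.282 to 0.00865 for Lyz1, -1.04 to 0.415 for Retnla, -0.102 to 0.161 for Cd74 and -0.537 to 0.182 for Mcpt4. They were -0.172 to 0.171 for Ccl9, -0.092 to 0.103 for Mif, -0.103 to 0.0845 for Krt10, -0.484 to 0.136 for Pf4, -0.228 to 0.811 for Sox10, -0.115 to 0.113 for Klf6, -0.0295 to 0.0335 for Atp5b and -0.0798 to 0.135 for Mt1. The medians ran from -0.104 to 0.0729 for blood endothelial and from -0.218 to -0.0897 for chaperone genes.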
